A study of Homo sapiens with 2 samples.

Results

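YAP (gene YAP1) and TAZ (gene WWTR1) are transcription cofactors of the Hippo pathway. The 10 genes described here, CCN1, CCN2, ANKRD1, F3, AMOTL1, AMOTL2, AJUBA, CRIM1, AXL and PTPN14, are widely used as readouts of their activity. They were chosen by gene name from 50868 genes, each name had 1 entry, and the choice was made with the resistant over parental ratios of these libraries known. Their ratios are therefore a description, with no test. Messenger RNA was sequenced from 1 sorafenib-resistant culture and 1 parental culture, both labelled as HepG2, a human hepatocellular carcinoma line. The resistant cells were selected with sorafenib, a multikinase inhibitor used against liver cancer, from 2.5 µM upward in steps of 0.5 µM until they proliferated at 7 µM. Its treatment label reads sorafenib; the parental cells, labelled WT, received none. Both cultures were grown in the same serum-containing medium. Whether sorafenib was present at harvest, and whether the resistant culture was a clone or a pool, is not stated in the labels.

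When the Hippo kinases are active, LATS1 and LATS2 phosphorylate YAP and TAZ and hold them in the cytoplasm. When the kinases are quiet, YAP and TAZ enter the nucleus and bind TEAD factors, which recognise the DNA motif GGAATG, often together with AP-1 factors at TGANTCA. In liver the pathway is known for its control of organ size and tumour growth. Several targets feed back on the pathway, among them the angiomotins, PTPN14 and the kinase LATS2.

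The resistant library held 16811907 counts and the parental library 18067146. Each group being a single library, no SD can be given, and every interval below covers counting error only. In bulk RNA, fewer cells of a type and less RNA per cell cannot be told apart. The 12 hepatocyte markers examined, ALB and AFP among them, summed to 4 counts in the resistant and 3 in the parental library, and 10 of them had 0 counts in both. The data thus go against the hepatocyte character that HepG2 is known for, and resistant and parental are used as the names of the libraries so labelled. Of 6 simple epithelium markers 3 were measured. These were KRT7 (42176 resistant and 34278 parental counts), KRT8 (13692 resistant and 14470 parental counts) and KRT18 (11238 resistant and 9910 parental counts). KRT8 and KRT18 overlap each other on opposite strands, so their reads may not be separable. KRT19 had 12 resistant and 14 parental counts, SOX9 had 13 resistant and 9 parental counts, and EPCAM had 0 in both. Of 8 fibroblast markers 6 were measured, while COL1A2 and PDGFRA had 0 counts in both. COL3A1 had 3267 resistant and 3941 parental counts, COL1A1 2611 resistant and 2565 parental, and PDGFRB 566 resistant and 509 parental. DCN had 101 resistant and 87 parental counts, and ACTA2 69 resistant and 49 parental. LUM, with 216 resistant and 93 parental counts, was past the size rule explained below as higher. The fibroblast markers summed to 407 CPM (counts per 1000000 counts, scaled with TMM factors) in the resistant and 400 CPM in the parental library. The 5 endothelial markers summed to 6.03 CPM in the resistant and 2.76 CPM in the parental library, with KDR at 0 in both, VWF at 0 resistant and 5 parental counts, and CDH5, past the size rule as higher, at 72 resistant and 20 parental counts. Among blood cell markers, PTPRC and CD3E had 0 counts in both libraries, and CD68, which shares exons with a gene of 334 resistant and 861 parental counts, had 156 resistant and 98 parental counts. What part such cells had in the members' values was not tested.

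The promoters of the 3 genes that were past the size rule and matched a RefSeq entry (GRCh38.p14) are shown first, because they carry the motifs of the factors that act with YAP and TAZ. Each run reads 5′ to 3′ on the gene's strand, from 250 bases before to 50 bases after the annotated start. Capitals mark GGAATG in CCN2, both GGAATG and TGANTCA in ANKRD1, and TGANTCA in F3. The windows are chr6:131951323-131951622 on the minus strand for CCN2, chr10:90921038-90921337 on the minus strand for ANKRD1 and chr1:94541710-94542009 on the minus strand for F3.
CCN2: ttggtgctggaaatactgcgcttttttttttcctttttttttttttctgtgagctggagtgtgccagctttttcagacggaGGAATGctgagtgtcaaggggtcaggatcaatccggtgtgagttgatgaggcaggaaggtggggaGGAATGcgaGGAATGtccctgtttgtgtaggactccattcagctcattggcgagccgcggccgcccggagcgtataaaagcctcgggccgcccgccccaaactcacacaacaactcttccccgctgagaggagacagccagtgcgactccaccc
ANKRD1: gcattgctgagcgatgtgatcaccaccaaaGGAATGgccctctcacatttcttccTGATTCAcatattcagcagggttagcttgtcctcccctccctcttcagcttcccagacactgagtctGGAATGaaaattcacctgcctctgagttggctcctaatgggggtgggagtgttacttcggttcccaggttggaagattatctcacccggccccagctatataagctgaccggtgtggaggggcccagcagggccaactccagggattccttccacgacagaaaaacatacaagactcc
F3: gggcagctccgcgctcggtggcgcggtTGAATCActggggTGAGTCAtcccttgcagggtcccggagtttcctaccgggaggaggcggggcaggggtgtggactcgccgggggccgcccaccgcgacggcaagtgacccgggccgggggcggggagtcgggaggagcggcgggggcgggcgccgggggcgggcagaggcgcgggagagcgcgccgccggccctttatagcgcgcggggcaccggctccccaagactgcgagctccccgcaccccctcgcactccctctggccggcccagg

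CCN2 held 3 GGAATG matches, at -169, -104 and -95 (first base, counted back from the start). ANKRD1 held 2 GGAATG matches, at -220 and -128, and 1 TGANTCA match at -195 between them. F3 held no GGAATG match in this window and 2 TGANTCA matches, at -223 and -210. Both motifs were searched on both strands, and no match of one overlapped a match of the other. Of all 35116 promoters of the table, 14.0% held at least 1 GGAATG, 1.37% at least 2 and 0.128% at least 3. At least 1 TGANTCA was in 7.71%, at least 2 in 0.515%, and both motifs in 1.45%.

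Of the 10 genes 8 matched the table, with 11 promoters, since AMOTL2, AJUBA and AXL have 2 entries each. CCN1 and CRIM1 were not matched. GGAATG was found in 6 of the 11 promoters and in 6 of the 8 genes, against 16.7% of all 27305 genes of the table. The members are known TEAD targets, so this share describes how they were chosen. For AMOTL2, AJUBA and AXL only the start farther inside the gene held a match, and the outer start held neither motif. The single matches of the remaining 4 genes lie in the windows chr3:134374398-134374697 (AMOTL2, minus strand), chr14:22976793-22977092 (AJUBA, minus strand), chr19:41226505-41226804 (AXL, plus strand) and chr1:214551553-214551852 (PTPN14, minus strand). They are shown with 10 bases on each side, and CATTCC in capitals is the motif read on the opposite strand.
AMOTL2, at -69: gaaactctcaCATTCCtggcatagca
AJUBA, at -59: gaagttggctGGAATGaagccaaagc
AXL, at -212: gactttgcacCATTCCactccctccg
PTPN14, at -200: tcccgggccgCATTCCtccccgcccc
AMOTL1 held no match of either motif in its window, which says nothing of sites elsewhere.

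**Figure D1:**
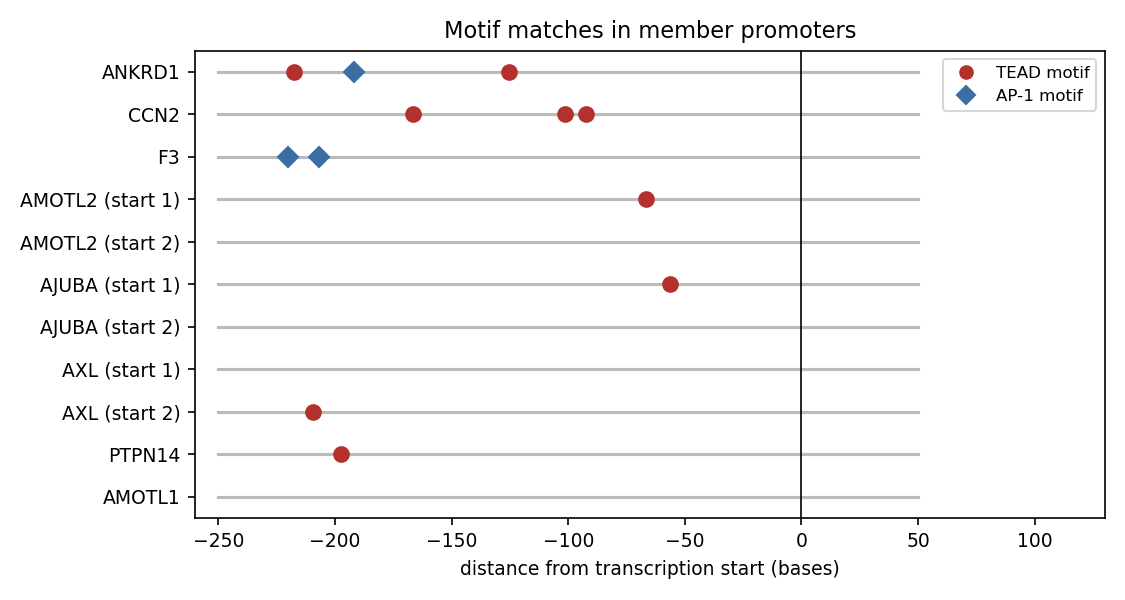
Motif matches in the 11 RefSeq promoters of 8 members. The x axis is the distance from the transcription start in bases, grey lines span each window, circles are TEAD motifs and diamonds AP-1 motifs; starts 1 and 2 of a gene are numbered by genome position. CCN2 holds 3 TEAD motifs, ANKRD1 2 TEAD motifs and 1 AP-1 motif, F3 2 AP-1 motifs, and AMOTL1 none.

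The comparison of the resistant with the parental library asks which genes differ in cells selected to grow in sorafenib. All 10 genes were measured, meaning a CPM of at least 1 in one of the libraries. The log2 ratio is the log2 of resistant CPM + 1 over parental CPM + 1, and the size rule is met at 1 or more, or at -1 or less. Of the 10 members 4 were past it as higher, CCN1, ANKRD1, CCN2 and F3, and none as lower. Of all 14686 measured genes 1.31% were past it as higher and 0.994% as lower. At 1.5-fold, 6 of 10 members were higher, against 4.84% of measured genes. The log2 ratio was above 0 in 9 of 10 members, against 49.7% of measured genes. The median log2 ratio was 0.71 over the members and -0.0018 over all measured genes. Nothing is read from these counts, because the same ratios were in view when the genes were chosen.

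CCN1, CCN2 and F3 act at or outside the cell surface. CCN1 (ENSG00000142871; chromosome 1, 85580761 to 85583962, plus strand, GRCh38) encodes a secreted matricellular protein that binds integrins. It had 7919 counts in the resistant and 2473 in the parental library, or 472 resistant and 136 parental CPM. The resistant level was 3.46-fold the parental level (95% interval 3.31 to 3.62). CCN1 had the highest level of the 10 genes in the resistant library, on the CPM scale as well as per length, where its FPKM was 150 in the resistant and 43.6 in the parental library. Ranked by FPKM among measured genes, it stood at position 133 in the resistant and 592 in the parental library.

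CCN2 (ENSG00000118523; chromosome 6, 131948176 to 131951373, minus strand), the connective tissue growth factor gene, is the closest relative of CCN1 in the list. It had 940 counts in the resistant and 370 in the parental library, at 56.1 resistant and 20.4 parental CPM, a fold of 2.75 (2.43 to 3.11). Per length, CCN1 stood at 6.28 times CCN2 in the resistant and at 4.98 times in the parental library. Both measured relatives stayed within the size rule, as did most measured genes. CCN3 had 487 resistant and 387 parental counts, a log2 ratio of 0.43, and CCN5 had 4107 resistant and 4662 parental counts, a log2 ratio of -0.07. CCN4 had 0 counts in the resistant and 3 in the parental library, and CCN6 had 0 in both.

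F3 (ENSG00000117525; chromosome 1, 94529225 to 94541800, minus strand) encodes tissue factor, the cell surface receptor for coagulation factor VII that starts clotting. It had 877 counts in the resistant and 388 in the parental library, at 52.3 resistant and 21.4 parental CPM, a fold of 2.44 (2.17 to 2.76). The 3 measured partners of F3 stayed within the size rule, as did most measured genes. TFPI, the inhibitor of the tissue factor pathway, had 1425 resistant and 1628 parental counts, a log2 ratio of -0.08. The protease receptor genes F2R and F2RL1 had log2 ratios of 0.33 each. F7 and F10, which encode the clotting factors that tissue factor engages, had 0 counts in both libraries, which allows up to 0.179 CPM in the resistant and 0.166 CPM in the parental library.

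ANKRD1 (ENSG00000148677; chromosome 10, 90912096 to 90921276, minus strand) encodes an ankyrin repeat protein of muscle that binds titin and also acts in the nucleus. It was the lowest of the 10 genes on the CPM scale in both libraries, with 621 counts in the resistant and 186 in the parental library, at 37.0 resistant and 10.3 parental CPM. Its fold of 3.61 (3.06 to 4.27) was the largest of the 10, and on the log2(CPM + 1) scale its ratio of 1.76 stood just under the 1.78 of CCN1. ANKRD2, which encodes a related protein of skeletal muscle, had 456 counts in the resistant and 242 in the parental library, a fold of 2.04 (1.74 to 2.39). The log2 ratio of ANKRD2 was 0.97, just within the size rule. ANKRD23, the third of the family, had 50 resistant and 71 parental counts and a log2 ratio of -0.30, and it shares exons with ANKRD39 (200 resistant and 210 parental counts), whose reads may not be separable from it.

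**Figure D2:**
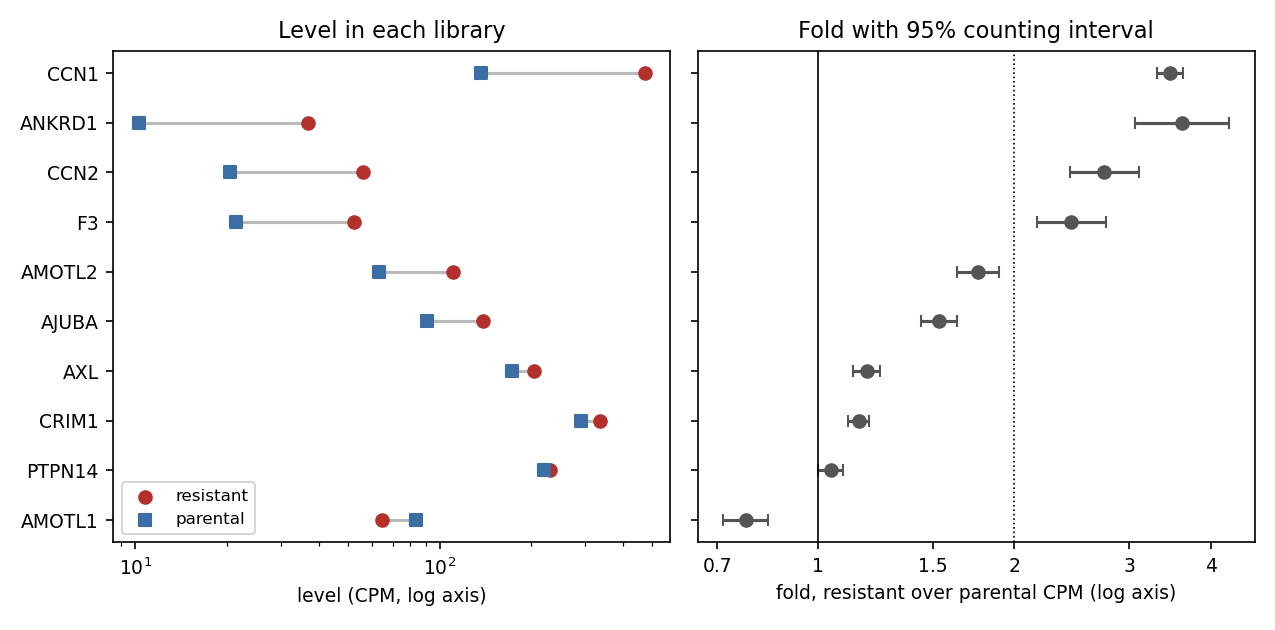
Levels and folds of the 10 members. Left, CPM on a log axis, with a red circle for the resistant and a blue square for the parental library; right, resistant over parental fold on a log axis with its exact 95% counting interval, the solid line at 1 and the dotted line at 2. CCN1, ANKRD1, CCN2 and F3 lie wholly above 2, and AMOTL1 lies wholly below 1.

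The membrane protein genes AXL and CRIM1 were abundant in both libraries and differed little. AXL (ENSG00000167601; chromosome 19, 41219203 to 41261766, plus strand), a receptor tyrosine kinase activated by GAS6, had 3424 counts in the resistant and 3119 in the parental library. These were 204 resistant and 172 parental CPM, a fold of 1.19 (1.13 to 1.25). Its relative TYRO3 had 590 resistant and 768 parental counts, a log2 ratio of -0.26, and MERTK had 13 resistant and 5 parental counts. The ligand gene GAS6 had 12 counts in each library, while PROS1, whose product binds TYRO3 and MERTK, had 1125 resistant and 1199 parental counts. GAS6 overlaps GAS6-AS1 on the opposite strand (32 resistant and 57 parental counts), so its reads may not be separable.

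CRIM1 (ENSG00000150938; chromosome 2, 36355926 to 36551135, plus strand) encodes a membrane protein that binds bone morphogenetic proteins (BMPs). It had 5630 counts in the resistant and 5273 in the parental library, at 336 resistant and 291 parental CPM, a fold of 1.15 (1.11 to 1.20). CRIM1 was the highest member on the CPM scale in the parental library and second to CCN1 in the resistant library. Among BMP genes, BMP2 had 2728 resistant and 2561 parental counts and a log2 ratio of 0.20, BMP4 had 28 counts in each library, and BMP7 had 0 in both. NOG, a secreted BMP antagonist gene, had 192 counts in the resistant and 113 in the parental library, a log2 ratio of 0.78. GREM1, another BMP antagonist gene, had 30 resistant and 13 parental counts and a log2 ratio of 0.70.

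The regulators of YAP among the targets all stayed within the size rule, as did most measured genes, with differences in both directions. AMOTL1 and AMOTL2 encode junction scaffolds of the angiomotin family that bind YAP and TAZ and keep them from the nucleus. AMOTL2 (ENSG00000114019; chromosome 3, 134355874 to 134375479, minus strand) had 1858 counts in the resistant and 1143 in the parental library, at 111 resistant and 63.1 parental CPM, a fold of 1.76 (1.63 to 1.89). AMOTL1 (ENSG00000166025; chromosome 11, 94706431 to 94876753, plus strand) was the 1 member with a lower level in the resistant library, with 1083 counts against 1513 in the parental library. This was 64.6 resistant and 83.5 parental CPM, a fold of 0.774 (0.715 to 0.837).

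The order of the 2 angiomotin genes on the FPKM scale differed between the libraries. AMOTL2 stood at 7.56 FPKM and AMOTL1 at 3.84 FPKM in the resistant library, a ratio of 1.97. In the parental library AMOTL2 stood at 4.33 FPKM and AMOTL1 at 4.99 FPKM, a ratio of 0.868. Of the counts of both genes together, AMOTL2 held 63.2% in the resistant library (95% Wilson interval 61.4 to 64.9) and 43.0% in the parental library (41.2 to 44.9). The ratio of their folds was 2.27 (2.04 to 2.53). AMOT, the founding member of the family, had 2 counts in the resistant and 0 in the parental library.

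AJUBA (ENSG00000129474; chromosome 14, 22971174 to 22982642, minus strand) encodes a LIM domain protein that binds LATS kinases and restrains them. It had 2329 counts in the resistant and 1641 in the parental library, at 139 resistant and 90.6 parental CPM, a fold of 1.53 (1.44 to 1.64). Its relatives LIMD1 and WTIP had log2 ratios of 0.04 and 0.36. PTPN14 (ENSG00000152104; chromosome 1, 214348696 to 214552449, minus strand), a tyrosine phosphatase that binds YAP and limits it, had 3864 counts in the resistant and 3993 in the parental library. At 230.5 resistant and 220.4 parental CPM its fold was 1.05 (1.001 to 1.09), the smallest difference of the 10. PTPN21, its closest relative, had 438 resistant and 452 parental counts and a log2 ratio of 0.06; it overlaps SPATA7 on the opposite strand (96 resistant and 122 parental counts). The 4 related phosphatase genes examined, PTPN21, PTPN13, PTPN3 and PTPN4, had log2 ratios between -0.09 and 0.15.

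Some neighbours in the order of folds were not separated by counting error. The fold of CCN1, second in that order, was 0.959 times that of ANKRD1 (0.805 to 1.14), that of CCN2 was 1.12 times that of F3 (0.945 to 1.34), and that of AXL was 1.03 times that of CRIM1 (0.967 to 1.09). The other steps exceeded it: CCN1 over CCN2 at 1.26 (1.11 to 1.44), F3 over AMOTL2 at 1.39 (1.21 to 1.60), and PTPN14 over AMOTL1 at 1.35 (1.23 to 1.48). AJUBA was at 0.873 of AMOTL2 (0.791 to 0.963), AXL at 0.774 of AJUBA (0.714 to 0.838), and CRIM1 at 1.10 of PTPN14 (1.04 to 1.17). The size rule falls between F3, at a log2 ratio of 1.25, and AMOTL2, at 0.80. Among all 14686 measured genes ordered from the highest log2 ratio, CCN1 stood at position 34, ANKRD1 at 36, CCN2 at 71 and F3 at 106, and AMOTL1 at 13312.

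The 10 genes together took 28545 counts, 0.170% of the resistant library (95% Wilson interval 0.168 to 0.172), and 20099 counts, 0.111% of the parental library (0.110 to 0.113). CCN1 alone held 27.7% of the members' counts in the resistant library (27.2 to 28.3) and 12.3% in the parental library (11.9 to 12.8). CCN1, CCN2, ANKRD1 and F3 together held 36.3% in the resistant library (35.7 to 36.8) and 17.0% in the parental library (16.5 to 17.5). In the authors' deposited table, which compares the same libraries, these 4 genes are called UP and no member DOWN, where 1.26% of 21518 compared genes are called UP. There, AMOTL2 has a log2 fold change of 0.80 and is not called.

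**Figure D3:**
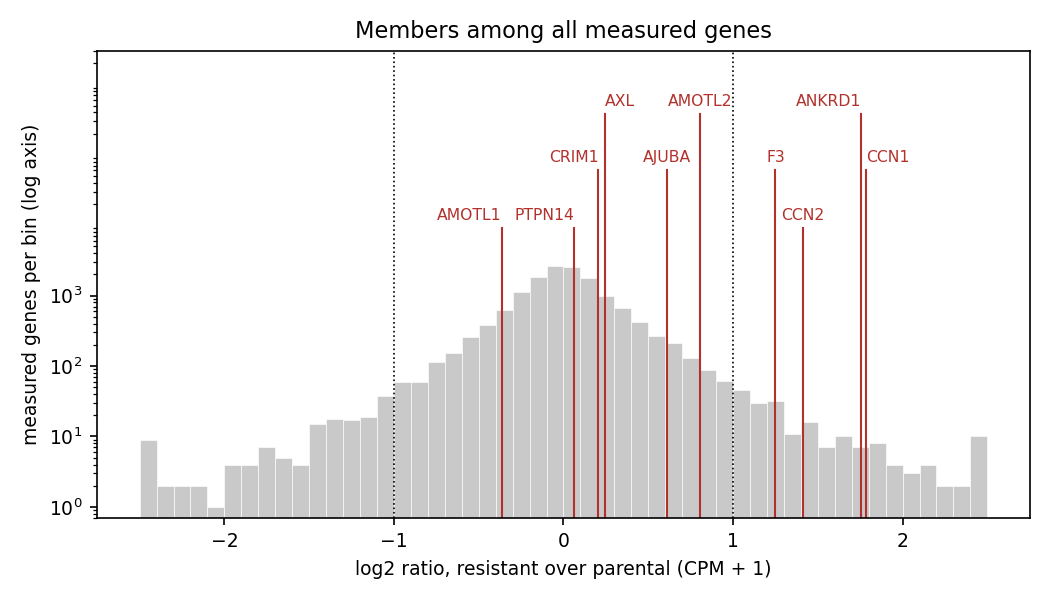
Log2 ratios of the 10 members among 14686 measured genes. Grey bars count measured genes per bin of the log2 ratio (log axis; the end bins also hold all genes beyond them), red lines mark the members, and dotted lines mark the size rule at -1 and 1. CCN1, ANKRD1, CCN2 and F3 lie to the right of 1 and AMOTL1 to the left of 0.

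Few reads were assigned to genes that overlap the members. In GENCODE 29 the same-strand genes that share exons with AJUBA, AMOTL2 and PTPN14 had 0 counts in both libraries, and the other members have none. Genes on the opposite strand that overlap member exons had at most 1 count in either library. The members lie on 8 chromosomes, and measured genes starting within 1 Mb of each had median log2 ratios between -0.15 and 0.06. Of these 139 neighbours, 2 were past the size rule as higher and 1 as lower, against 1.31% and 0.994% of all measured genes.

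The genes that act upstream are given beside all measured genes, of which 1.31% were past the size rule as higher and 0.994% as lower. Of 29 core Hippo factors 26 were measured, 1 was past the size rule as higher and none as lower, with a median log2 ratio of 0.11. Of the 26, 20 had a log2 ratio above 0, against 49.7% of all measured genes. The list was chosen with earlier results of these data known. YAP1 had 25759 counts in the resistant and 27228 in the parental library (1537 resistant and 1503 parental CPM), a fold of 1.02 (1.005 to 1.04), and WWTR1 had 1309 resistant and 1495 parental counts, a fold of 0.946 (0.878 to 1.02). The TEAD genes had log2 ratios of 0.15 for TEAD1, 0.05 for TEAD2, -0.14 for TEAD3 and 0.35 for TEAD4. LATS1 was at 0.01 and LATS2, itself a known target, at 0.41. The gene past the size rule was STK4, which encodes the kinase MST1 upstream of LATS, with 1776 counts in the resistant and 603 in the parental library, a fold of 3.18 (2.90 to 3.50). FRMD6 (0.74), WWC1 (0.60) and NF2 (0.54), all upstream activators of LATS, had the next largest log2 ratios. VGLL4, which encodes a competitor of YAP for TEAD binding, had 1128 resistant and 1468 parental counts, a log2 ratio of -0.26; it overlaps ATG7 on the opposite strand (367 resistant and 405 parental counts). The remaining measured factors lay between log2 ratios of -0.37 for TAOK3 and 0.40 for VGLL3, and VGLL1, VGLL2 and DCHS1 had 0 counts in both libraries.

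Of 14 other genes that published YAP signatures list, all were measured and none was past the size rule. Of the 14, 13 had a log2 ratio above 0, and the median of the 14 was 0.39. Over all measured genes 1.31% were past the rule as higher, 49.7% had a log2 ratio above 0 and the median was -0.0018. Nothing is read from these shares, because the list was chosen with earlier results of these data known. IGFBP3, which encodes a carrier of insulin-like growth factors, had 9816 counts in the resistant and 5551 in the parental library, a fold of 1.91 (1.85 to 1.98). GADD45A, a stress response gene, was at 1.79-fold (1.58 to 2.04), TGFB2, a growth factor gene, at 1.82-fold (1.43 to 2.32) and NT5E, which encodes the ecto-nucleotidase CD73, at 1.48-fold (1.29 to 1.70). FOXF2 was the 1 with a negative log2 ratio, at -0.16.

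A wider list of 54 genes reported to respond to YAP, beyond the members and partly shared with the signature, had 52 measured genes. Of these, 2 were past the size rule as higher and none as lower, 34 had a log2 ratio above 0, and the median was 0.12. For all measured genes the shares were 1.31% as higher, 0.994% as lower and 49.7% above 0, and the median was -0.0018. Nothing is read from the contrast, since this list was also chosen with earlier results of these data known. THBS1, the thrombospondin-1 gene, had 1661 counts in the resistant and 775 in the parental library, a fold of 2.32 (2.13 to 2.53). FGF2, the basic fibroblast growth factor gene, had 3621 resistant and 1843 parental counts, a fold of 2.12 (2.01 to 2.25). FGF2 overlaps NUDT6 on the opposite strand, which had 401 resistant and 249 parental counts, and such reads may not be separable. PMP22 had a log2 ratio of 0.75. In the other direction, 18 genes of the list were below 0, the lowest being AGFG2 at -0.64 (665 resistant and 1133 parental counts).

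SRF, with its cofactors of the MRTF family, also drives CCN1 and CCN2. Of 24 SRF and actin genes 20 were measured, none was past the size rule in either direction, and the median log2 ratio was 0.15. The shares past it over all measured genes were 1.31% as higher and 0.994% as lower. Of the 20, 16 had a log2 ratio above 0, against 49.7% of all measured genes. This list too was chosen with earlier results of these data known. TAGLN, the transgelin gene, had 183 counts in the resistant and 103 in the parental library and a log2 ratio of 0.83; it overlaps PCSK7 on the opposite strand (957 resistant and 1134 parental counts). ZYX, ACTA2 and TPM4 had log2 ratios of 0.53, 0.47 and 0.36. ACTA2, with 69 resistant and 49 parental counts, overlaps FAS on the opposite strand (234 resistant and 115 parental counts), so its reads may not be separable. Of 9 receptor genes for CCN proteins 8 were measured and none was past the size rule. ITGB3 had 17 resistant and 5 parental counts, ITGA6 and ITGA5 had log2 ratios of 0.44 and 0.36, and ITGB1 one of -0.21.

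The deposited annotation places 150 other genes in the KEGG Hippo signaling pathway. Of these 114 were measured, 2 were past the size rule as higher and none as lower, and the median log2 ratio was 0.06. The 2 were YWHAB, which encodes a 14-3-3 protein of the kind that holds phosphorylated YAP in the cytoplasm, at 2.40-fold (2.27 to 2.54), and AMH, the anti-Müllerian hormone gene, at 2.37-fold (1.93 to 2.93). CDH1 had 20 resistant and 5 parental counts and a log2 ratio of 0.78. Of the 114, 71 had a log2 ratio above 0 and 43 below 0. The lowest was -0.69 for ID2, with 522 resistant and 923 parental counts. Over all 222 measured pathway and family genes beyond the members, 5 were past the size rule as higher and none as lower. The 5 were STK4, YWHAB, THBS1, AMH and FGF2, and the median over the 222 was 0.09. Among all 14686 measured genes, 1.31% were past it as higher, 0.994% as lower and 49.7% were above 0, with a median of -0.0018.

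**Figure D4:**
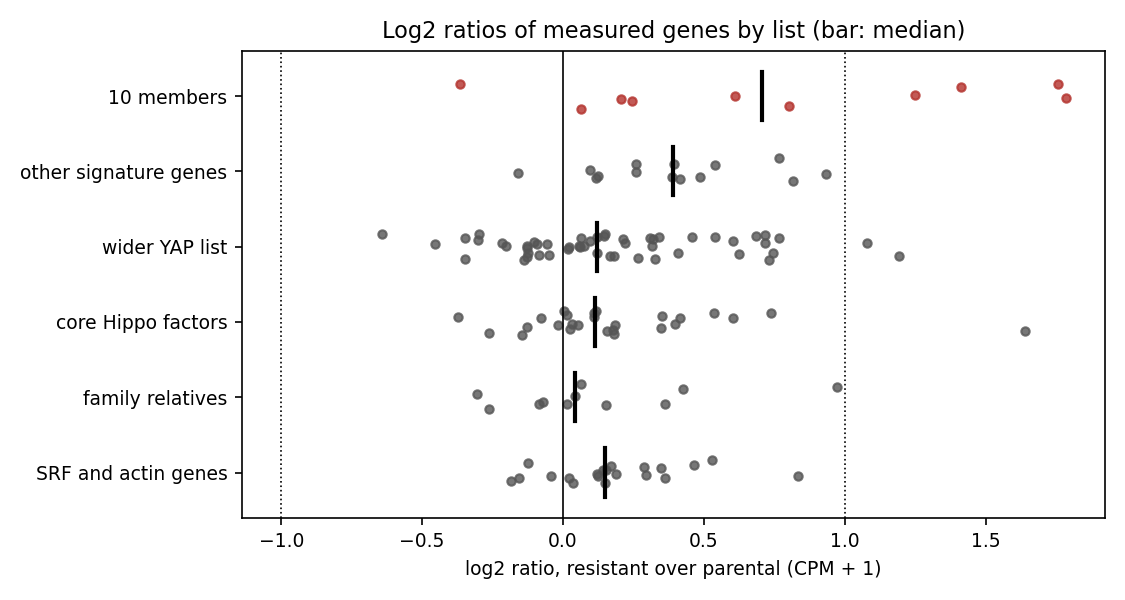
Log2 ratios, resistant over parental, of the measured genes of 6 lists. Each point is 1 gene, short black bars are list medians, and dotted lines mark the size rule; family relatives are the measured relatives of the CCN, AJUBA, PTPN14, ANKRD1 and AXL genes. The median is 0.71 for the members, 0.39 for the other signature genes and 0.11 for the core Hippo factors, whose 1 point past 1 is STK4.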

How the data were processed

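The authors deposited 3 tables of the same 50868 genes, with whole-number counts and FPKM per library, per the file headers. Per the submitters' processing notes the tools were bcl2fastq 2.19, HISAT2 2.0.4 and StringTie 1.3.0 on GRCh38. The annotation release and the counting options, strand included, were not given in the sources used here. In the authors' deposited table the log2 fold change matches log2 of resistant FPKM over parental FPKM for all 10 members, within 1e-06. The deposited p-values and q-values compare 1 library with 1 and were not used.

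Counts were scaled to CPM with TMM factors (0.997 resistant, 1.003 parental) computed by edgeR 4.0.16 (R 4.3.3), and no count model was run. Fold is the ratio of CPM; its 95% interval is Clopper-Pearson on the resistant share of both counts (SciPy 1.17.1), and ratios of folds have a conditional exact interval. The log2 ratio adds a pseudocount of 1 CPM, which understates differences of low genes. A count of 0 allows 3 counts. PCR copies are not independent molecules, so intervals cover counting error only, and with 1 library per group no test was made. The calculation was tested on simulated data.

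The members and lists were chosen with earlier results of these data known. The lists were written down from general knowledge of the pathway, except the KEGG list. Named were all members and up to 4 genes per other list with the largest absolute log2 ratio; upstream factors and family relatives within the size rule were named or given by their range, and cell type markers were a check of the labels. FOXF2, AGFG2, ID2, genes that overlap named genes, and the genes of the closing observations were named after their values were seen. GENCODE 29 holds 50111 of the 50868 identifiers, and all 10 members with identical coordinates. Promoters came from RefSeq (GRCh38.p14). Alternatives were total counts, DESeq2 1.42.0 size factors, totals without mitochondrial genes, FPKM with a pseudocount of 1 FPKM, other pseudocounts, summed overlapping genes, another size rule and other filters.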

Additional observations from a re-analysis of the deposited data

How the results depend on the processing

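The members past the size rule numbered 4 under 7 alternatives (total counts, DESeq2 size factors, totals without mitochondrial genes, deposited FPKM with 1 FPKM added before the log2, CPM pseudocounts of 0.1 and 5, sums over genes that share exons) and 6 at 1.5-fold. The members' median log2 ratio stayed between 0.62 and 0.71. Of 70 recomputed member values none changed sign, and 2 left their counting interval, AMOTL2 with FPKM + 1 (0.68, against 0.80 in the authors' deposited table, which adds nothing) and ANKRD1 with a pseudocount of 5 (1.46). The counts of list genes past the size rule, 5 in the pathway and family lists together, became 3 with FPKM + 1, 14 with a pseudocount of 0.1 and 29 at 1.5-fold. The percent of measured genes past the size rule in either direction, 2.30%, became 0.994% with FPKM + 1, 5.08% and 1.03% with pseudocounts of 0.1 and 5, 8.65% at 1.5-fold and 0.664% with no filter on low values. The FPKM setting changes the unit and the weight of the pseudocount together. The other shifts follow from how each setting weighs or counts low genes or sets the threshold. No paired analysis was possible because each group has 1 library. Variation between cultures cannot be estimated for the same reason, so no value shows whether another resistant culture would differ in the same way. Depth limits MERTK, GAS6, CDH1 and ITGB3, at 20 counts or fewer.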

Other observations

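STK4 and YWHAB, the upstream kinase and 14-3-3 genes with the largest ratios among the pathway genes, lie close together on chromosome 20. YWHAB spans 44885676 to 44908532 and STK4 44966474 to 45079959 (GRCh38). Between them lie PABPC1L, with 672 counts in the resistant and 495 in the parental library (log2 ratio 0.54), and TOMM34, with 2094 resistant and 2203 parental counts (log2 ratio 0.04). The 36 measured genes starting within 1 Mb of STK4 had a median log2 ratio of 0.09, and YWHAB was the 1 of them past the size rule. STK4 shares no exons with another gene in GENCODE 29.

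The wider YAP list holds 11 genes linked to proliferation, among them TOP2A, CENPF, BIRC5, CDC20, TK1, DUT and CDKN2C. Grouped after their values were seen, these had log2 ratios between -0.35 for DUT and 0.18 for HMMR, with a median of -0.09. Of the 11, 5 were above 0 and 6 below. They summed to 2576 CPM in the resistant and 2718 CPM in the parental library. The other 41 measured genes of the list had a median of 0.21, and both genes past the size rule, THBS1 and FGF2, were among them.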
